A study of Rattus norvegicus with 16 samples.

Results

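The genes described here are 38 genes that are expressed by macrophages, or by white blood cells more widely, and that were measured in embryonic rat kidney. They were taken as every probe set whose annotation names exactly 1 of the 38 symbols. At gene level 37 of the 38 had 1 probe set each among 21371, and Msr1, a scavenger receptor, had none. At exon level all 38 were covered, by 409 of 213067 probe sets. Male kidneys came from MWF rats (Munich Wistar Frömter), which develop albuminuria, at E15.5 and from SHR, the spontaneously hypertensive rat, at E16.0. Kidneys were snap-frozen, total RNA was purified with a column kit for small samples, and biotin-labelled RNA was hybridised to Affymetrix rat arrays, 4 per strain. The same 8 arrays were summarised as 1 value per gene and as 1 value per exon probe set, so both levels are 1 experiment. No treatment or transgene was named for either strain. Strain and embryonic day cannot be told apart in this design, so a difference between groups is one of both. Nothing in the labels tells whether the 4 samples of each strain were different animals, litters or pools, and the p-values therefore cover only the spread among these samples, which may be technical.

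Macrophages are among the first immune cells of the embryo. They arise outside the kidney, in yolk sac and fetal liver, and enter the kidney while nephrons form, where they clear dying cells and lie beside growing vessels. Their survival depends on Csf1r, the receptor for colony stimulating factor 1, and their identity on the transcription factor PU.1, which is encoded by Spi1 and binds purine-rich sites in promoters of myeloid genes. Not all of the 38 genes are specific to macrophages: Ptprc, Coro1a, Lcp1, Hcls1 and Rac2 are used by most white blood cells, and Lyn, Cyba and Cd68 are also expressed outside them.

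Because PU.1 is 1 of the genes, the 250 bases before the transcription start were read for its motif. RefSeq promoters (assembly GRCr8) were found for 24 of the 38 symbols. The core GAGGAA, searched on both strands, was present in 16 of the 24 (66.7%), against 7812 of all 33469 promoters (23.3%). The longer form GAGGAAGT, which contains the core, was present in 4 of the 24 (16.7%), those of Fcgr3a, Cd53, Ctss and Vav1, against 2.04% of all promoters. The composite element bound by an ETS factor with an interferon regulatory factor (GGAA and GAAA, 2 bases of any kind between them) was present in 2 of the 24 (8.33%), Cd68 and Cybb, against 2.48%. These are matches of letters in a window and were not tested as binding sites.

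Below are 4 promoters, each the 250 bases up to the transcription start, 5′ to 3′ on the strand of the gene, with matches in capitals. They are shown because they differ in the motif: Csf1r holds the core 2 times, Adgre1 holds it 1 time, Cd53 holds the longer form, and Coro1a, the gene with the smallest p among the 37, holds no match in this window. In Csf1r (chr18:56834129-56834378, plus strand) the matches begin 229 and 95 bases before the start, both on the opposite strand. In Adgre1 (chr9:2329190-2329439, plus strand) the match begins 207 bases before it. In Cd53 (chr2:197087897-197088146, minus strand) the core within the longer form begins 44 bases before it, on the strand opposite to the gene. The Coro1a window is chr1:190731104-190731353, minus strand.
Csf1r: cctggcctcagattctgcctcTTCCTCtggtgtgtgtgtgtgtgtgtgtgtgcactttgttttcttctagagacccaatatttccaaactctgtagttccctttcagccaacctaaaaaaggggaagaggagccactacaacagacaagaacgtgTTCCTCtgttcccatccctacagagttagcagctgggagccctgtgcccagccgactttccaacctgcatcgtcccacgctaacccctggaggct
Adgre1: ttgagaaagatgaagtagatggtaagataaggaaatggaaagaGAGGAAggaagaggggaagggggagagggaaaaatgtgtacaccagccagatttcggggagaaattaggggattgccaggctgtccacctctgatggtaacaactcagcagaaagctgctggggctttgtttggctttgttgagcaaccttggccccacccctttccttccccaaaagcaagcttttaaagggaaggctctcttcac
Cd53: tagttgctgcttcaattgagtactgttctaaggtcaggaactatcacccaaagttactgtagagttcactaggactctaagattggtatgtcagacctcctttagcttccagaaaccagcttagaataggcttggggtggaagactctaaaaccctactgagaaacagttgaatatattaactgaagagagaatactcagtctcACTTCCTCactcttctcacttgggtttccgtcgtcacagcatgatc
Coro1a: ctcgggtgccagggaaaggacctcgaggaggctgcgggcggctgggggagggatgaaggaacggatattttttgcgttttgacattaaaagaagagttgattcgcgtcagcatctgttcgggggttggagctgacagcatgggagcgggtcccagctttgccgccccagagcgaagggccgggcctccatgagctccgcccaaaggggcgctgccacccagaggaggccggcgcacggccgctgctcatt

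All values are log2 intensities as deposited. Array medians lay between 8.17 and 8.21 at gene level and between 7.93 and 7.99 at exon level, and precision is limited by how many arrays there are. Across gene-level probe sets, which are not independent replicates, arrays of 1 strain correlated at 0.979 to 0.992 and arrays of different strains at 0.971 to 0.986. SHR replicate 2 stood apart from the other SHR arrays. Its mean over Th, Dbh, Chga and Chgb, genes of sympathetic neurons and adrenal medulla, was 6.03, against 10.78, 10.99 and 11.16 in SHR replicates 1, 3 and 4. The same mean was 8.14 in MWF replicate 1 and 6.14 to 6.30 in the other MWF arrays. Counts of called genes are therefore given with all arrays and without SHR replicate 2.

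Most of the genes were measured at low intensity. Their median over the 8 arrays was 7.40 against 8.17 for all gene-level probe sets. As a mark of background, 50 probe sets of olfactory and vomeronasal receptors had a median of 6.57 and a 95th percentile of 8.03. Of these 50, 5 were themselves called between the strains (limma adjusted p under 0.05), against 6.58% of all probe sets in either direction. A call at background intensity is therefore to be read with care. Taken strain by strain, the percentile was 8.04 in MWF, where Fcer1g, Lcp1 and Lyn had means above it (3 of 37 genes, against 52.6% of all probe sets). In SHR it was 7.86, and 11 of 37 genes lay above it (56.1% of all), these 3 with C1qb, Cd53, Coro1a, Csf1r, Cybb, Mrc1, Rac2 and Tyrobp. Of the 6 macrophage markers Csf1r, Adgre1, Cd68, C1qa, Cx3cr1 and Mrc1, none was above it in MWF, and Csf1r and Mrc1 were in SHR. Below the percentile a low level and no measurable signal cannot be told apart from intensity alone, so a difference there is one of intensities and is given without a fold.

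Kidneys of MWF carried less signal than kidneys of SHR for most of these genes. The difference, MWF minus SHR, was below 0 in 32 of the 37 genes, as in 43.7% of all probe sets, and its median was -0.50, against 0.02 over all. Coro1a, Lcp1, Hcls1, Adgre1, Rac2 and Fcgr2b passed the test, all lower in MWF (limma, Benjamini-Hochberg adjusted p under 0.05 over all 21371 probe sets). The 6 calls are 16.2% of the 37 genes, against a background of 3.40% of all probe sets called lower. In these 6 genes, and in no other of the 37, every MWF array lay below every SHR array, as in 7.0% of all probe sets. Of the 6, Adgre1, Fcgr2b and Hcls1 were above the receptor percentile in neither strain. No gene of the 37 was called higher, against 3.18%, and at an unadjusted p under 0.05 limma gave 21 lower (10.7% of all) and 2 higher (11.7% of all), Cyba and Plek. Intensities differed by at least 1.5-fold in 12 genes, all lower in MWF, against 2.68% of all probe sets. Of the 12, Adgre1 and Lcp1 passed the test. Adgre1, C1qc, Cx3cr1 and Laptm5 were above the receptor percentile in neither strain, so this is a count of intensities and not of expression folds. Without SHR replicate 2, 32 genes were again below 0 (41.4% of all), 28 were lower and 2 higher at an unadjusted p under 0.05 (11.8% and 12.8% of all), and 18 were lower by at least 1.5-fold (3.36% of all). In whole tissue, fewer cells of a type and less RNA per cell cannot be told apart.

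**Figure D1:**
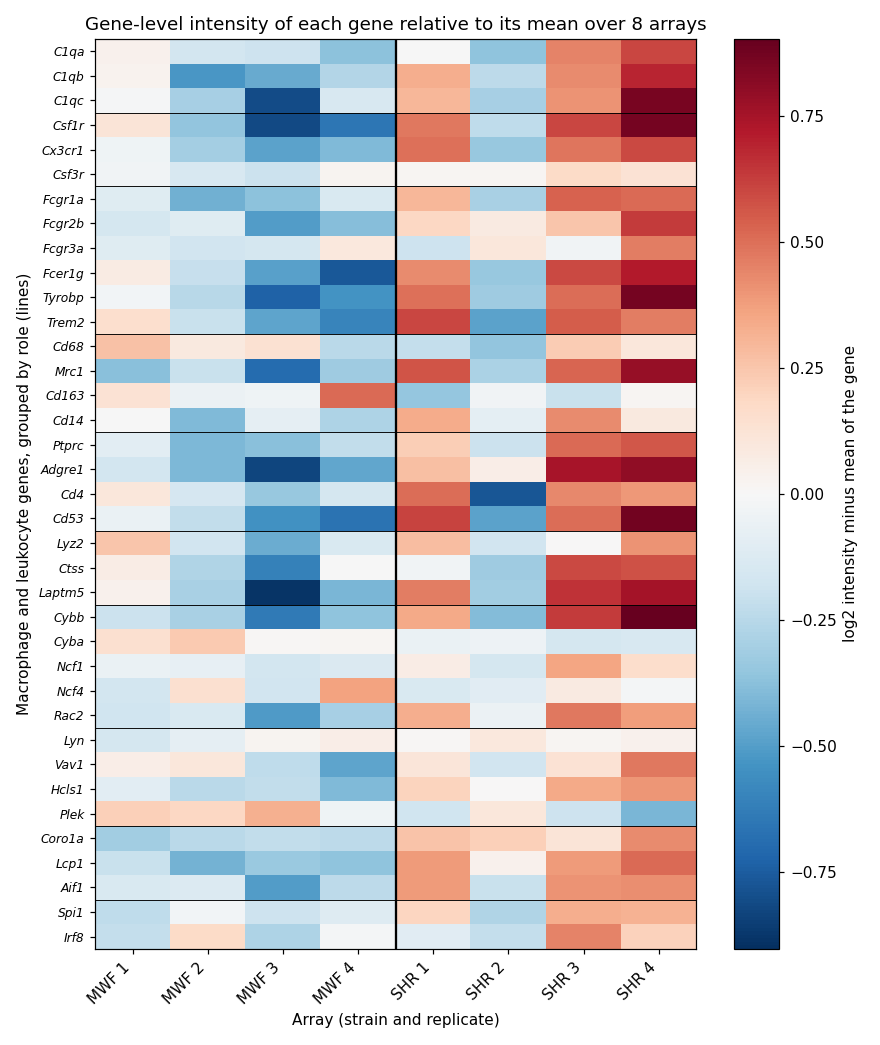
Gene-level log2 intensity of the 37 genes on each of the 8 arrays, shown as the departure from each gene's mean over the arrays, with genes grouped by role. SHR replicates 1, 3 and 4 lie above MWF for most genes and SHR replicate 2 lies lowest of the SHR arrays in 30 of 37.

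How many genes passed depended on SHR replicate 2. It was the lowest of the 4 SHR arrays in 30 of the 37 genes, as in 23.0% of all probe sets, and it lay within the MWF range in 25 (48.7% of all). The mean over the 37 genes was 7.34, 7.21, 7.02 and 7.14 in MWF replicates 1 to 4. It was 7.59, 7.20, 7.72 and 7.82 in SHR replicates 1 to 4, so that SHR replicate 2 fell among the MWF arrays and the others above them. Every MWF array lay below SHR replicates 1, 3 and 4 in 25 genes, against 11.6% of all probe sets. Without SHR replicate 2, limma called 24 of the 37 genes lower (background 6.62%) and Plek higher (background 4.05%), and the median difference was -0.58. The SHR arrays left in that fit all had a high mean over Th, Dbh, Chga and Chgb (10.78 to 11.16, against 6.14 to 8.14 in MWF). Strain and sympathoadrenal signal therefore cannot be told apart in any result given without SHR replicate 2. In the 30 genes where that array was lowest in SHR, leaving it out raises the SHR mean by construction. A difference further below 0 without it is therefore no added support in those genes. The genes varied more within each strain than probe sets at large. In SHR their median SD was 0.30 against 0.12 over all 4 arrays and 0.15 against 0.10 without SHR replicate 2. In MWF it was 0.19 against 0.11.

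The sympathoadrenal genes moved with these values. With their mean over Th, Dbh, Chga and Chgb as a covariate in the limma fit, Lcp1 was called lower and no other gene of the 37 was (background 1.38%), and the median difference was -0.10. In that fit the difference was -0.42 ± 0.08 (SE) for Lcp1, with an adjusted p of 0.0293, and -0.49 ± 0.10 for Coro1a, with an adjusted p of 0.0502. The covariate is itself high in 3 of 4 SHR arrays and low in 3 of 4 MWF arrays. A strain difference and a difference in sympathoadrenal signal therefore cannot be told apart in this fit.

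**Figure D2:**
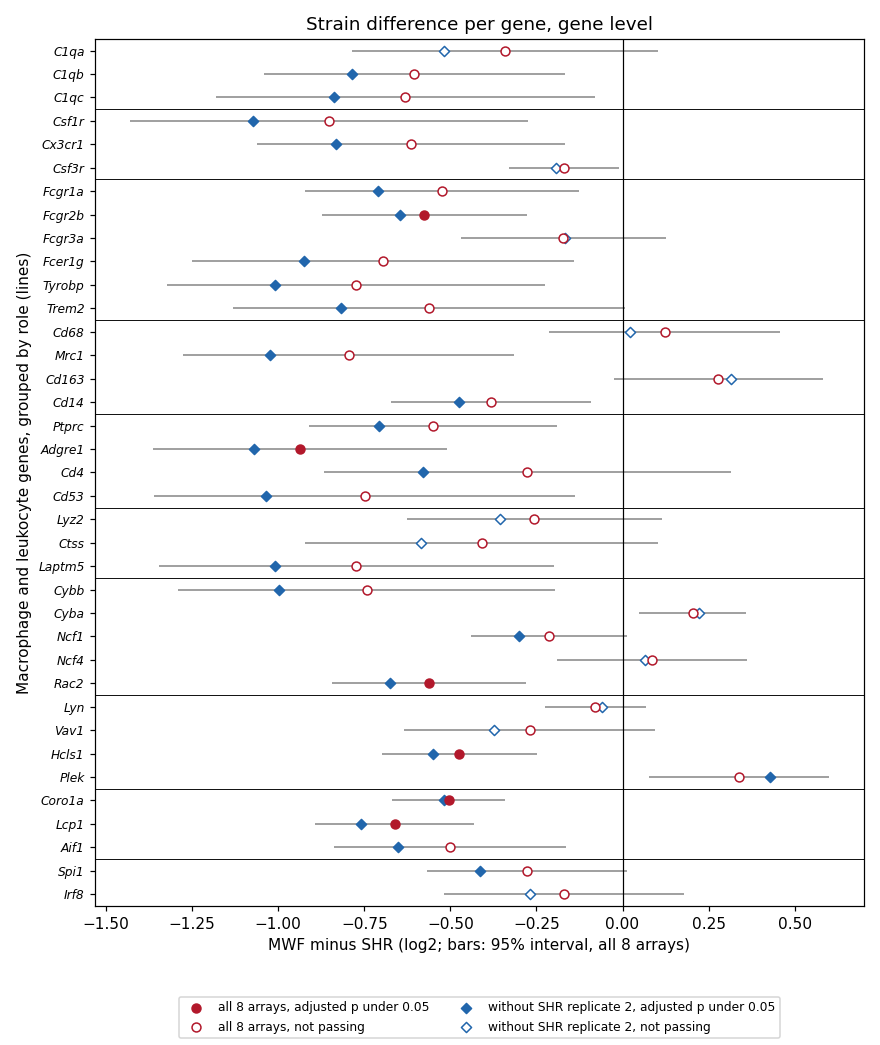
Difference MWF minus SHR on the log2 scale for each of the 37 genes, with its 95% confidence interval from limma, grouped by role, beside the estimate without SHR replicate 2. The estimates run from -0.94 for Adgre1 to 0.34 for Plek, with 32 below 0.

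Of the 3 actin regulators 2 were called lower, Coro1a and Lcp1, against 3.40% of all probe sets, and the median difference was -0.51. Coro1a encodes coronin 1A, which binds actin in white blood cells. It read 7.90, 7.97, 7.99 and 7.98 in MWF replicates 1 to 4 and 8.47, 8.43, 8.33 and 8.64 in SHR. Every SHR array, replicate 2 included, lay above every MWF array. The difference was -0.51 ± 0.07 (SE, limma adjusted p = 0.00411). Lcp1 encodes plastin 2, which bundles actin filaments. It read 8.89, 8.67, 8.76 and 8.73 in MWF and 9.48, 9.14, 9.48 and 9.61 in SHR, a difference of -0.66 ± 0.10 or 1.58-fold (limma adjusted p = 0.00587). Again no array of one strain overlapped the other. Both calls held with any 1 array left out, with adjusted p up to 0.0166 for Coro1a and 0.0238 for Lcp1. Aif1, the microglia and macrophage protein also known as Iba1, read 7.35, 7.36, 6.99 and 7.25 in MWF and 7.87, 7.28, 7.89 and 7.90 in SHR. SHR replicate 2 lay within the MWF range, and the difference of -0.50 ± 0.15 did not pass (limma adjusted p = 0.081). Without that array it did (-0.65 ± 0.10, adjusted p = 0.0038).

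Among the surface antigens, 1 of 4 was called lower, against 3.40% of all probe sets, and all 4 differences lay below 0. Adgre1 encodes an adhesion receptor that is the classical surface marker of mouse macrophages. It read 6.66, 6.42, 6.0 and 6.36 in MWF and 7.10, 6.89, 7.57 and 7.63 in SHR. Each SHR array lay above each MWF array, though neither strain's mean was above the receptor percentile and that of MWF, 6.36, was below the receptor median. The difference in intensity was -0.94 ± 0.19 (limma adjusted p = 0.0212). With 1 array left out it passed in 3 of 8 fits, and with SHR replicate 2 kept its adjusted p ran from 0.0257 to 0.0576. It was lost without MWF replicates 2, 3 or 4 or SHR replicates 3 or 4. Ptprc (CD45), the phosphatase carried by all white blood cells, differed by -0.55 ± 0.16, and Cd53, a tetraspanin of white blood cells whose promoter is shown above, by -0.75 ± 0.27. Neither passed with all arrays, and both did without SHR replicate 2, at -0.71 and -1.04 (limma adjusted p = 0.0046 and 0.0042). Cd4, which rat macrophages carry as well as helper T cells, read 7.16, 6.91, 6.72 and 6.90 in MWF and 7.56, 6.29, 7.49 and 7.45 in SHR. SHR replicate 2 was below every MWF array and the other SHR arrays above them, so that the SD in SHR was 0.61, the highest of the 37. The difference was -0.28 ± 0.26 with all arrays and -0.58 ± 0.10 without SHR replicate 2 (limma adjusted p = 0.587 and 0.0083).

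Of the receptors for growth factors and chemokines, none of 3 was called. Csf1r, the receptor on which macrophage survival depends, read 8.52, 8.05, 7.59 and 7.76 in MWF and 8.88, 8.17, 9.01 and 9.27 in SHR. SHR replicates 1, 3 and 4 lay above all MWF arrays, and SHR replicate 2 lay among them. The difference was -0.85 ± 0.26 with all arrays and -1.07 ± 0.21 without SHR replicate 2 (limma adjusted p = 0.0828 and 0.013). Cx3cr1, the fractalkine receptor of monocytes and resident macrophages, differed by -0.61 ± 0.20 and, without SHR replicate 2, by -0.83 ± 0.10 (limma adjusted p = 0.103 and 0.0018). Csf3r, the granulocyte colony stimulating factor receptor that marks neutrophils, read 6.99, 6.87, 6.82 and 7.04 in MWF and 7.04, 7.04, 7.19 and 7.14 in SHR. The ranges overlapped slightly, and the difference of -0.17 ± 0.07 did not pass with or without SHR replicate 2.

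Among Fc receptors and their adaptors, all 6 differences lay below 0 and 1 was called lower, against 3.40% of all probe sets. Fcgr2b, the inhibitory receptor for immunoglobulin G, read 6.87, 6.92, 6.52 and 6.65 in MWF and 7.22, 7.11, 7.28 and 7.66 in SHR. The strains did not overlap, and the difference in intensity was -0.58 ± 0.13 (limma adjusted p = 0.0345). Its means, 6.74 in MWF and 7.32 in SHR, were above the receptor percentile in neither strain. With SHR replicate 2 kept, the call was lost with any other array left out, with adjusted p from 0.0507 to 0.0923. The gene-level value of Fcgr2b equalled 1 of its 10 exon probe sets, as described below, and the mean of all 10 differed by -0.12 (limma adjusted p = 0.33). Tyrobp (DAP12) and Fcer1g, the adaptors through which many myeloid receptors signal, differed by -0.77 ± 0.24 and -0.70 ± 0.25. Fcgr1a, the high affinity receptor, differed by -0.52 ± 0.18 and Trem2, a lipid receptor that pairs with Tyrobp, by -0.56 ± 0.25. None of these 4 passed with all arrays and all 4 passed without SHR replicate 2. Fcgr3a, a lower affinity receptor, read 6.29, 6.23, 6.25 and 6.50 in MWF and 6.22, 6.50, 6.37 and 6.86 in SHR. SHR replicate 1 was the lowest of the 8 arrays, and the strains overlapped (-0.17 ± 0.13, limma adjusted p = 0.492).

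Complement C1q is made of 3 chains, which tissue macrophages supply. None of the 3 genes was called, and all 3 differences lay below 0. C1qb read 7.61, 7.06, 7.13 and 7.32 in MWF and 7.91, 7.34, 8.01 and 8.27 in SHR. SHR replicate 2 lay within the MWF range and the other SHR arrays above it. The difference was -0.60 ± 0.19 with all arrays and -0.78 ± 0.14 without SHR replicate 2 (limma adjusted p = 0.101 and 0.01). C1qc differed by -0.63 ± 0.24 and passed without that array as well. C1qa read 7.44, 7.24, 7.22 and 7.03 in MWF and 7.40, 7.04, 7.85 and 8.01 in SHR. SHR replicates 1 and 2 lay within the MWF range, and the difference of -0.34 ± 0.20 did not pass in either fit.

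Of the 4 scavenger and pattern receptors with a gene-level value, 2 differed below 0 and none was called. Mrc1, the mannose receptor of resident macrophages, read 7.49, 7.66, 7.17 and 7.55 in MWF and 8.43, 7.58, 8.39 and 8.65 in SHR. SHR replicate 2 lay among the MWF arrays, with a difference of -0.80 ± 0.21 over all arrays and -1.02 ± 0.12 without it (limma adjusted p = 0.06 and 0.0013). Cd14, the co-receptor for lipopolysaccharide, differed by -0.38 ± 0.13 and passed without SHR replicate 2 (-0.47, limma adjusted p = 0.0371). Cd68, a lysosomal glycoprotein used to stain macrophages, read 7.93, 7.75, 7.80 and 7.42 in MWF and 7.45, 7.31, 7.89 and 7.76 in SHR. The strains overlapped throughout, with a difference of 0.12 ± 0.15 and a 95% interval of -0.21 to 0.46. Cd163, the haemoglobin scavenger receptor, differed by 0.28 ± 0.13 with 6.16 ± 0.26 for MWF and 5.88 ± 0.17 for SHR (SD, n = 4). It did not pass (limma adjusted p = 0.264). Both means lay below the receptor medians of 6.57 and 6.52, so this is a difference within background.

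Of the 5 phagocyte oxidase genes, Rac2, the small GTPase that activates the enzyme, was called lower, against 3.40% of all probe sets. It read 7.64, 7.69, 7.32 and 7.53 in MWF and 8.15, 7.77, 8.30 and 8.20 in SHR. No array overlapped, though SHR replicate 2 was close to MWF replicate 2, and the difference was -0.56 ± 0.12 (limma adjusted p = 0.0303). With SHR replicate 2 kept, leaving out any other array lost the call, with adjusted p from 0.0512 to 0.0869. Cybb, the catalytic subunit gp91phox, differed by -0.74 ± 0.24 with all arrays and -1.0 ± 0.15 without SHR replicate 2 (limma adjusted p = 0.106 and 0.0037). Its membrane partner Cyba, p22phox, lay the other way: 7.73 ± 0.11 for MWF against 7.52 ± 0.06 for SHR (SD, n = 4). Cyba was the 1 gene of the 37 whose MWF arrays all lay above all SHR arrays (7.36% of all probe sets do), and its difference of 0.20 ± 0.07 did not pass (limma adjusted p = 0.115). Its 9 exon probe sets were split, 4 below 0 and 5 above, from -0.20 to 0.89 with a median of 0.02. The means of all 9 differed by 0.15 and did not pass (limma adjusted p = 0.298). The cytosolic subunit Ncf1 (p47phox) differed by -0.21 ± 0.10. Ncf4, p40phox, read 7.27, 7.57, 7.26 and 7.80 in MWF and 7.30, 7.33, 7.51 and 7.41 in SHR. The strains overlapped, with a difference of 0.09 ± 0.12 at gene level. The medians over all 8 of its exon probe sets, a summary with less weight on the brightest one, differed by -0.36 (limma adjusted p = 0.0389). These medians were dim, 5.56 to 5.72 in MWF and 5.81 to 6.12 in SHR. Both ranges lay below the gene-level receptor medians of 6.57 and 6.52. The means of all 8 differed by -0.11 and did not pass (limma adjusted p = 0.386).

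Lysosomal and secreted products gave 3 differences below 0 and no call. Laptm5, a lysosomal membrane protein of blood cells, read 7.50, 7.16, 6.57 and 7.04 in MWF and 7.92, 7.14, 8.11 and 8.20 in SHR. SHR replicate 2 lay within the MWF range, and the difference was -0.77 ± 0.25 with all arrays and -1.01 ± 0.19 without it (limma adjusted p = 0.108 and 0.0118). Ctss, the protease cathepsin S, differed by -0.41 ± 0.23. Lyz2, lysozyme, read 7.70, 7.27, 7.0 and 7.31 in MWF and 7.73, 7.28, 7.45 and 7.85 in SHR. Its ranges overlapped (-0.26 ± 0.16), and neither Ctss nor Lyz2 passed without SHR replicate 2.

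In leukocyte signalling, 1 of 4 genes was called lower, against 3.40% of all probe sets. Hcls1 encodes HS1, a cortactin relative phosphorylated after receptor engagement. It read 7.12, 6.97, 6.99 and 6.82 in MWF and 7.41, 7.22, 7.56 and 7.61 in SHR. The strains did not overlap, though neither strain's mean, 6.98 in MWF and 7.45 in SHR, was above the receptor percentile. The difference in intensity was -0.47 ± 0.10 (limma adjusted p = 0.0246). It passed in 2 of 8 fits with 1 array left out, those without MWF replicate 1 or SHR replicate 2, and with SHR replicate 2 kept its adjusted p ran from 0.0312 to 0.0682. Vav1, a guanine nucleotide exchange factor of blood cells, differed by -0.27 ± 0.16. Plek, pleckstrin of platelets and white blood cells, went the other way by 0.34 ± 0.12, and by 0.43 ± 0.10 without SHR replicate 2 (limma adjusted p = 0.119 and 0.0295). Its means, 6.50 in MWF and 6.16 in SHR, lay below the receptor medians of 6.57 and 6.52, so this is a difference within background. Lyn, a Src family kinase, read 8.96, 9.04, 9.14 and 9.18 in MWF and 9.13, 9.21, 9.14 and 9.16 in SHR. The ranges overlapped at gene level, with a difference of -0.08 ± 0.07.

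Neither of the 2 transcription factors was called. Spi1 (PU.1) read 6.76, 6.97, 6.80 and 6.88 in MWF and 7.18, 6.72, 7.32 and 7.30 in SHR. SHR replicate 2 was the lowest of the 8 arrays and the other SHR arrays the highest. The difference was -0.28 ± 0.13 with all arrays and -0.41 ± 0.07 without SHR replicate 2 (limma adjusted p = 0.244 and 0.0087). Irf8, an interferon regulatory factor of the myeloid lineage, read 6.72, 7.10, 6.65 and 6.92 in MWF and 6.83, 6.72, 7.38 and 7.14 in SHR. Its ranges overlapped (-0.17 ± 0.15), and it passed in neither fit.

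The exon-level values show how evenly a difference ran along each gene. Of the 409 exon probe sets, 319 differed below 0, against 47.5% of all exon probe sets, with a median of -0.36 against 0.01. Limma called 23 lower (background 1.04%) and none higher (background 0.892%), and at an unadjusted p under 0.05 it gave 170 lower (7.11% of all) and 10 higher (6.63% of all). Lcp1 held 8 of the 23 among its 16 probe sets, all 16 of which were below 0, from -0.85 to -0.18. Coro1a held 3 of its 12, again all below 0, and Adgre1 held 3 of 20. Ptprc had 3 of 33, Mrc1 2 of 30, and Csf1r (25), Msr1 (9), Hcls1 (14) and Lyn (17) had 1 each. Without SHR replicate 2, 332 were below 0 (46.6% of all), 84 were called lower (background 1.99%) and 1 higher (background 0.927%).

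**Figure D3:**
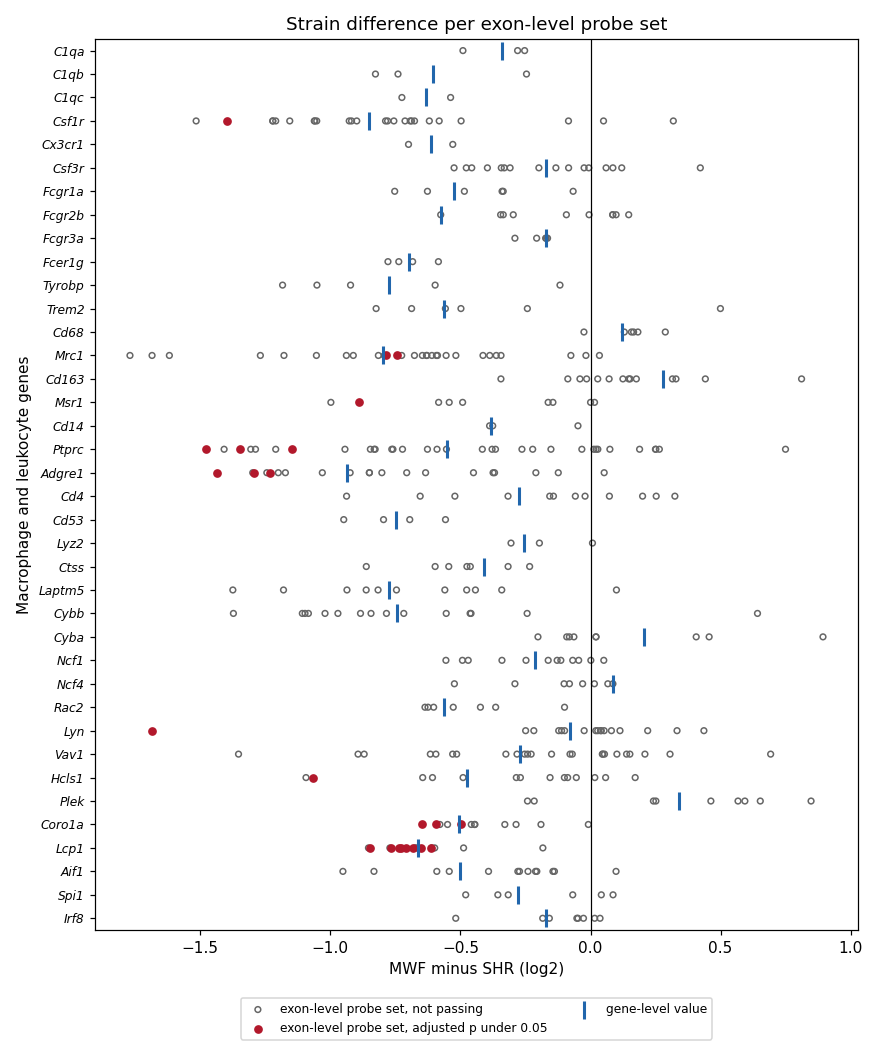
Difference MWF minus SHR on the log2 scale for each of the 409 exon probe sets, by gene, with called probe sets marked and the gene-level value beside them. Lcp1 and Coro1a lie below 0 throughout, and 1 probe set of Lyn lies at -1.69, apart from the other 16.

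In Lyn the exon level showed what the gene-level value did not. A single probe set read 8.72, 8.99, 8.82 and 8.49 in MWF and 10.39, 10.62, 10.37 and 10.38 in SHR. The 4 SHR arrays, replicate 2 included, lay close together and far above MWF, and the difference was -1.69 ± 0.12 (limma adjusted p = 0.0002). The other 16 probe sets of Lyn ran from -0.25 to 0.44 and none was called. Probe sequences were not analysed here, so whether the strains differ in sequence under that probe set was not tested.

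Msr1, the class A scavenger receptor with no gene-level probe set, was covered by 9 exon probe sets, 7 of them below 0. The called one read 7.56, 7.46, 7.22 and 7.56 in MWF and 8.53, 8.04, 8.27 and 8.51 in SHR. The strains did not overlap in it (-0.89 ± 0.14, limma adjusted p = 0.014). The medians over the 9 probe sets differed by -0.66 ± 0.14 (limma adjusted p = 0.022 over 16582 genes, of which 2.96% were called lower).

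The make-up of the gene-level values bears on how they are read. In 32 of the 37 genes the gene-level value equalled, within 0.01 on every array, the mean of the exon probe sets with the highest maximum over the arrays, as in 84.6% of 11422 genes. In 24 of the 32 only part of the probe sets entered, and for Fcgr2b and Ncf4 a single one did. A probe set that is bright in 1 strain only can enter through that strain. With the mean of all exon probe sets instead, limma called Adgre1, Aif1, Coro1a, Hcls1, Lcp1, Mrc1, Ptprc and Rac2 lower (background 5.03%), and Msr1 as well, and Fcgr2b was not called. In 35 of the 37 genes the median of the exon differences had the sign of the gene-level difference. Most gene-level values are built from these same probe sets, so that count is no independent support.

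Markers of other cells were read on the same arrays. Of 46 other macrophage and myeloid genes, 8 were called lower and 2 higher, against 3.40% and 3.18% of all probe sets, with a median difference of -0.22. Without SHR replicate 2 the counts were 18 lower and 1 higher, against 6.62% and 4.05%. The mean over the 46 genes was 7.70 to 7.90 in MWF, 7.83 in SHR replicate 2 and 8.09 to 8.21 in the other SHR arrays. Slc11a1, the phagosomal metal transporter, read 6.43, 6.37, 6.0 and 6.19 in MWF and 8.62, 7.62, 8.63 and 8.80 in SHR. SHR replicate 2 was lowest in SHR and above all MWF arrays, which lay below the receptor median. The difference in intensity was -2.17 ± 0.24 (limma adjusted p = 0.000881). C3ar1, the receptor for complement fragment C3a, and Lyve1, carried by lymphatic endothelium and some macrophages, were also called, with differences of -0.93 ± 0.12 and -0.86 ± 0.15. Tlr7, Gpnmb, Ly86, Tlr4 and Sirpa made up the rest of the 8. These 5 were picked for naming with their values known, and so were the 2 called higher, Cd52 (1.11 ± 0.22) and Hpgds (0.70 ± 0.17). Of 11 ligands of myeloid cells none was called. Ccl3 differed by -0.55, Csf1, the ligand of Csf1r, by -0.34 and Ccl2 by -0.24 (limma adjusted p = 0.0652, 0.08 and 0.388), and these 3 were called lower without SHR replicate 2. Of 9 complement genes outside C1q, C7 was called higher in MWF by 0.46, with and without SHR replicate 2, and none was lower, while C6 differed by 0.38 and Serping1 by -0.38 without passing.

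Genes of other blood cells were read in the same way. Of 11 T and NK cell genes 1 lay above the receptor percentile over all arrays. Their mean was 7.25 to 7.38 in MWF and 7.08 to 7.17 in SHR, a difference between means near background, and none was called with or without SHR replicate 2. Cd8a, Cd3e and Gzmb, of cytotoxic and other T cells, differed by 0.55, 0.20 and 0.22. The mean over 6 granulocyte genes was 6.95 to 7.02 in MWF and 6.75 to 6.95 in SHR, all 6 genes at or below the receptor background. None of the granulocyte (Ltf, Elane, Prtn3), B cell (Cd79b, Blnk) or mast cell (Tpsb2, Hdc, Cpa3) genes was called in either fit. Of 3 megakaryocyte genes Gp9 was called higher in MWF by 0.31 in both fits, and Pf4 and Ppbp were not called. Of 11 red cell genes 4 were called higher in MWF, against 3.18% of all probe sets, Hbb-b1 by 1.63, Rhd by 1.68, Hbb by 0.68 and Hbe2 by 0.52. Without SHR replicate 2, 6 were called higher, against 4.05%. Their list mean was 8.69 to 9.92 in MWF and 8.01 to 8.58 in SHR.

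All 9 endothelial genes differed below 0 and none passed, with Sox18 at -0.48, Esam at -0.39 and Cdh5 at -0.32. These 3 were called lower without SHR replicate 2. Their mean was 8.70 to 8.81 in MWF, 8.75 in SHR replicate 2 and 8.90 to 9.11 in the other SHR arrays. The 7 sympathoadrenal genes, Ddc, Phox2a and Slc18a1 among them, had a mean of 6.22 to 7.53 in MWF, 6.20 in SHR replicate 2 and 9.73 to 10.15 in the other SHR arrays. None of the 7 was called with all arrays and all 7 were called lower without SHR replicate 2. The 7 liver genes, with Fgb, Ahsg and Alb leading, ran from 7.26 to 9.69 in MWF and from 6.80 to 9.66 in SHR. The 7 kidney genes, with Osr1, Ret and Cited1 leading, ran from 9.97 to 10.24 and from 9.91 to 10.11. No liver or kidney gene was called with all arrays, and Ret and Cited1 were called higher in MWF without SHR replicate 2. What these genes have to do with the macrophage genes was not tested beyond the covariate fit.

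**Figure D4:**
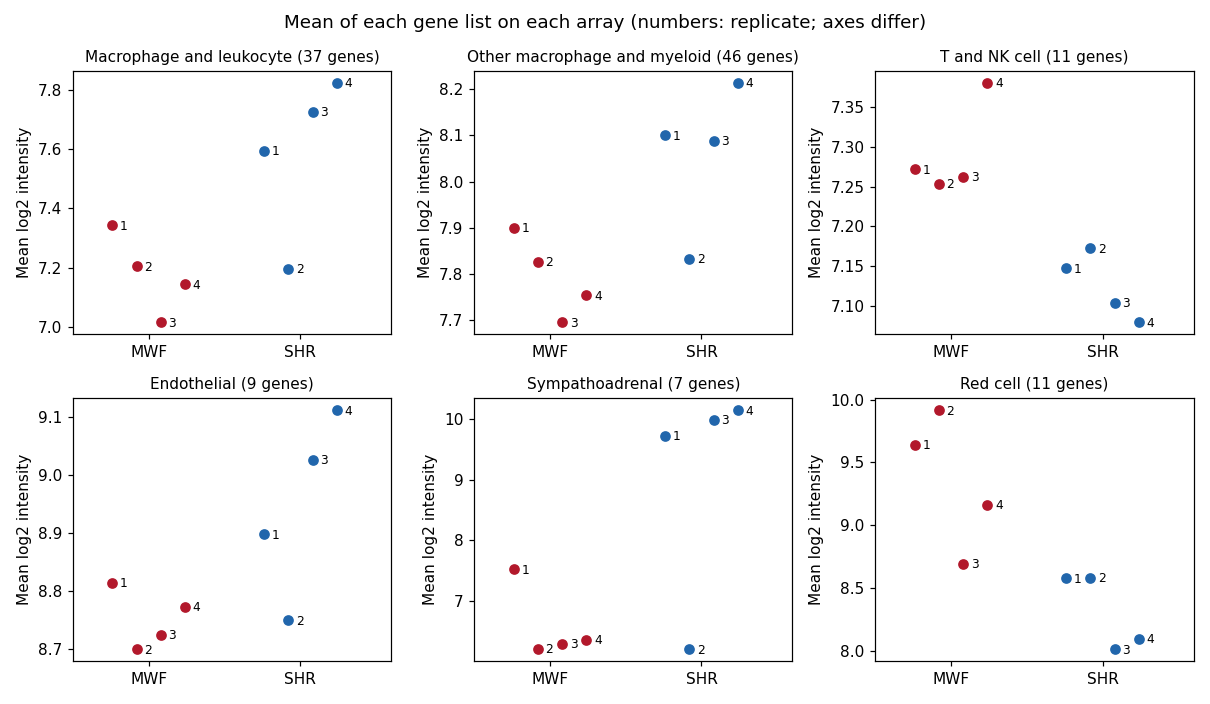
Mean gene-level log2 intensity on each array for the 37 macrophage and leukocyte genes and for 5 other marker lists, with 1 point per array, its replicate number beside it, and a scale of its own for each list. In both macrophage lists and in the endothelial and sympathoadrenal lists SHR replicate 2 lies with the MWF arrays and the other SHR arrays lie above them.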

How the data were processed

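Total RNA of 8 kidney samples was measured on arrays, and log2 intensities were deposited by the authors at gene and exon level. Per the submitters' processing notes Partek was used. Its version, the background correction, summarisation, normalization and filters were not given in the sources used here. Symbols came from the platform's annotation, updated through RefSeq (GRCr8). At gene level 12936 had 1 symbol, 184 several and 8251 none, and at exon level 172924, 1661 and 38482. Those with several or none were tested and not named.

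Each table was fitted whole with limma 3.58.1 in R 4.3.3 (lmFit, eBayes, strain as the only term) and adjusted by Benjamini-Hochberg, with a threshold of 0.05. The code was tested on simulated data.

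The genes and lists were chosen with earlier results of these data known. Named are all 37 genes, with every array for called genes and for the smallest and largest p in each role, and up to 3 genes with the smallest p in each other list. Alternatives covered normalization, dim probe sets, variance model, array weights, replicate block, left-out arrays, a sympathoadrenal covariate and gene summaries. Proteins and probe sequences were not analysed here.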

Additional observations from a re-analysis of the deposited data

Results flagged for a closer look

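In 4 of 74 groups of 4 arrays (37 genes, 2 strains; 5.41%), 1 array lay far from the other 3 by Dixon's test at the 95% level, which chance gives in about 1 of 20 groups. All 4 cases are SHR replicate 2, low in SHR. Cx3cr1, the fractalkine receptor, read 6.95 there and 7.78 to 7.89 in the other SHR arrays. Trem2, the lipid receptor, read 6.29 against 7.24 to 7.38. Cd4, of macrophages and helper T cells, read 6.29 against 7.45 to 7.56. Aif1, the actin-binding protein Iba1, read 7.28 against 7.87 to 7.90. The same array had the lowest sympathoadrenal mean of the SHR arrays, and the part of this in the 4 values was not tested.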

How the results depend on the processing

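The 6 calls among the 37 genes were the same 6 under quantile normalization (3.55% of all probe sets called lower). They were also the same under a variance model with trend and robust settings (4.00%), and with 1 probe set per gene there were 7 (4.84%). Limma called 2 lower (4.45% of all tested) when probe sets dimmer than the median were left out, a step that kept 6 of the 37 genes. With array weights it called 19 lower and 1 higher, against 6.27% and 4.95% of all probe sets. With 1 array left out, calls ran from 2 to 24 lower and from 0 to 1 higher, and from 7 to 84 lower and 0 to 1 higher among exon probe sets, the top values being those without SHR replicate 2 for lower calls. Without SHR replicate 2 the share of all gene-level probe sets called lower was 6.62%, and without any other array 1.93% to 2.44%. At exon level the share was 1.99% without SHR replicate 2 and 0.604% to 0.706% without any other array. Without both SHR replicate 2 and MWF replicate 1, 23 genes and 90 exon probe sets were lower. With the sympathoadrenal covariate, 1 gene and 1 exon probe set were lower (1.38% and 0.321% of all) and the median difference was -0.10. With the replicate number as a replicate block, 3 genes (Cd14, Coro1a, Lcp1) and 6 exon probe sets were lower, against 3.06% and 0.519% of all. Adgre1, Fcgr2b, Hcls1 and Rac2 were not called in that fit. The numbers were not taken as pairs, since the labels name no shared litter or day and the correlations of deviations from the group means between arrays of 1 number were 0.28, 0.15, 0.098 and 0.16. MWF replicates 1, 2 and 3 deviated most like the SHR array of their own number. MWF replicate 4 deviated most like SHR replicate 2 and SHR replicate 3 most like MWF replicate 1. Pairing by number was therefore neither shown nor excluded. Signs turned in genes not called with all arrays. With the covariate this held for Irf8 (0.0089), Ctss (0.052), Cd4 (0.43), C1qa (0.11), Lyz2 (0.058), Trem2 (0.088) and Vav1 (0.0060). Cd68 was at -0.045 without both arrays and at 0.023 to 0.22 with 1 left out. Ncf4 ran from -0.021 (without MWF replicate 4) to 0.16 with 1 left out, and was at -0.36 with exon medians (limma adjusted p = 0.0389) and at -0.11 with means of all exon probe sets, an alternative chosen after seeing the data. Where no cause is named above, the cause was not tested.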
